A study of Mus musculus with 2 samples.

Results

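Kinesins are motor proteins that use ATP to walk along microtubules or to take them apart. The kinesin genes were read in KSL cells, bone marrow cells sorted as lineage-negative and positive for both c-Kit and Sca-1, among which haematopoietic stem cells are enriched. All genes named Kif followed by a number, with an optional letter from a to c, were taken, provided that their probe sets carried a single gene symbol. This gave 37 kinesin genes of the 19938 genes measured. By the role each gene is known for, 11 were called mitotic kinesins and 13 transport kinesins; another 6 belong to cilia and related structures, 4 regulate microtubule length and 3 were left unclassified.

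The series compared Nrf2 knockout mice with wild-type mice on the C57BL/6J background, all young, healthy and 8 to 10 weeks old, and its title concerns stem cell survival under NRF2. NRF2, encoded by Nfe2l2, is a transcription factor of the antioxidant response. For each genotype, marrow from 5 mice was combined and sorted, and the amplified RNA of the combined KSL cells went onto 1 Affymetrix Mouse Gene ST 1.0 array. Each gene therefore has 1 knockout and 1 wild-type value, no difference has a replicate check, and no test between the genotypes was possible. The deleted part of Nfe2l2 is not stated in the labels, and each pool stands for several animals without showing the spread among them.

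In dividing cells, mitotic kinesins push spindle poles apart, align chromosomes and build the midzone at which the cell divides, and their genes are mostly transcribed late in the cell cycle. Transport kinesins carry vesicles, mitochondria and lysosomes along microtubules in resting and dividing cells alike. Most haematopoietic stem cells rest, while the multipotent progenitors in a KSL gate divide more often.

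Values are log2 intensities as deposited, and every difference is knockout minus wild type on that scale. A level filter, set at the median of the gene means, 6.57 on the log2 scale, was passed by 9970 genes and by 24 of the 37 kinesins. The differences of the 9970 genes had a median of −0.020 and an SD of 0.33. In 515 genes with exactly 2 probe sets, disagreement between probe sets gave a difference an error SD of 0.32, or 0.17 by a robust estimate; animals, sorts and amplifications add spread that it does not contain. Nfe2l2 itself stood at 9.07 in knockout and 9.16 in wild-type cells, and Kit, the c-Kit gene of the gate, at 11.21 and 10.93; Ly6a, which encodes Sca-1, was not analysed here. Most markers of mature neutrophils were lower in the knockout array. All 16 of 18 that passed the filter were below 0, against 52.9% of all genes, with a median of −1.46. Below the filter, Mmp9 differed by −0.82 and Ly6g by 0.51. The mean log2 level of the 18, without the filter, was 7.76 in knockout and 8.98 in wild-type cells. Retnlg and Lcn2 were furthest apart at −2.66 and −2.10. The filter uses the mean of both arrays, and Retnlg, Mmp8, Cxcr2 and Il1r2 passed it only through their wild-type values. In knockout cells they read 5.36, 5.74, 6.19 and 6.52. Of 12 monocyte and macrophage markers listed, 10 were measured and 7 passed the filter. Those 7 had a median of −0.67 and 6 were below 0, while Cd68 was higher by 0.63. Fn1 and Ccl6 passed only through their wild-type values, and read 6.41 and 6.51 in knockout cells. Stem cell and progenitor markers, 15 listed and 13 measured, had a median of 0.12 over the 12 past the filter. The B lineage, T and NK, erythroid and megakaryocyte lists, with 2 to 5 members past the filter, had medians between −0.36 and 0.13. The part that such cells play in the kinesin values below was not tested. In bulk RNA, fewer cells of a type and less RNA per cell cannot be told apart.

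**Figure D1:**
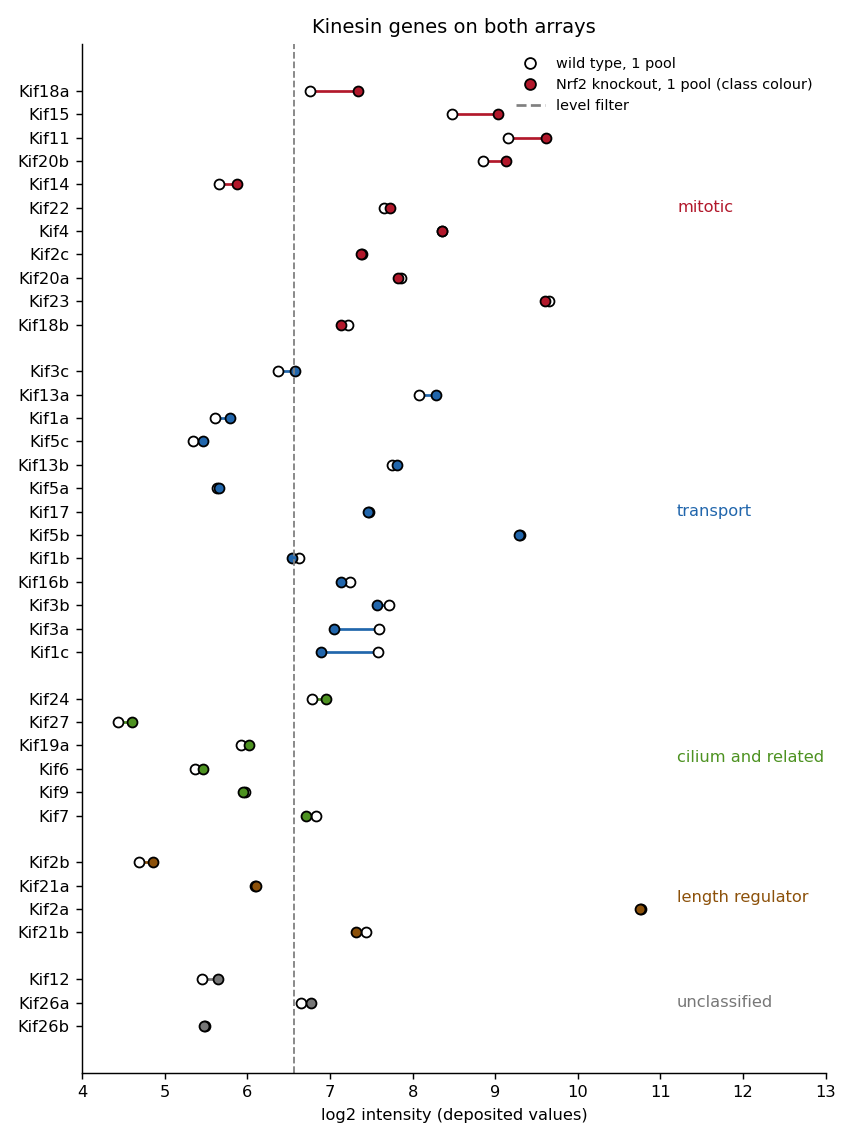
Log2 intensity (horizontal axis) of each of the 37 kinesin genes in the wild-type pool (open circles) and the Nrf2 knockout pool (filled circles, coloured by class), 1 array each, with the level filter at 6.57 as a dashed line. Kif18a, Kif15 and Kif11 lie to the right in the knockout pool and Kif1c and Kif3a to the left, while most other pairs nearly coincide; positions of different genes are not comparable, since each has its own probes.

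Of the 10 mitotic kinesins past the filter, 4 read higher in the knockout array and 6 lay within 0.1 of no difference. The higher genes were Kif18a, Kif15, Kif11 and Kif20b, of which Kif20b, at 0.28, lay within the probe-set error SD of 0.32. Each of these 4 genes was read by 1 probe set, so none has a second reading of its difference. Kif23, Kif20a, Kif2c, Kif18b, Kif4 and Kif22 were nearly level between the pools. The median over the 10 mitotic kinesins past the filter was 0.037, and their mean was 0.18. Of the 10, 6 were above 0, against 46.5% of all genes past the filter, and this count was 5 after median centring and 8 after quantile normalization or loess on level, since Kif4, Kif2c and Kif20a lie so close to 0 that scaling turned their sign.

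The motors that hold the spindle bipolar were both higher in the knockout array. Kif11 encodes Eg5, the tetrameric motor that slides antiparallel microtubules apart and so separates the spindle poles. It lies on chr19:37376382-37421863 of GRCm38.p6 and stood at 9.61 in knockout and 9.15 in wild-type cells, a difference of 0.46 or 1.38-fold. Kif15, on chr9:122951081-123018733, encodes a motor that can maintain a bipolar spindle when Eg5 is inhibited. Its values were 9.03 and 8.48, a difference of 0.55 or 1.47-fold. Differences at least as high as that of Kif11 were seen in 4.56% of all genes past the filter, and as high as that of Kif15 in 2.74%.

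Of the mitotic kinesins that align chromosomes or act on microtubule ends, Kif18a was higher in the knockout array and Kif18b, Kif2c, Kif22 and Kif4 were nearly level. Kif18a, on chr2:109280738-109341749, encodes a motor that dampens the movements of chromosomes at the metaphase plate, and mice that lack it have few germ cells. It stood at 7.34 in knockout and 6.76 in wild-type cells, a difference of 0.58 or 1.49-fold, the highest of the family. Its relative Kif18b, which acts on astral microtubules, stood at 7.13 against 7.21, a difference of −0.079. Kif2c, the microtubule depolymerase of centromeres also called MCAK, was at 7.38 and 7.39, a difference of −0.015 whose sign turned with quantile normalization and loess. The chromosome-arm motors were level too. Kif22, which encodes the chromokinesin Kid, was at 7.72 against 7.65, and Kif4, which encodes a chromokinesin that also works at the midzone, at 8.36 against 8.35; the sign of Kif4 turned with median centring. A pseudogene of Kif4 is represented by separate probe sets, and cross-hybridisation between both was not tested.

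The motors of the midzone and of cell separation were divided in the same way. Kif23, the motor of the centralspindlin complex, stood at 9.61 in knockout and 9.65 in wild-type cells, a difference of −0.041. Kif20a, which carries regulators to the midzone, was at 7.83 against 7.86, a difference of −0.027 that was slightly above 0 after quantile normalization and loess. Neither of these central cytokinesis motors was apart by more than the robust probe-set error of 0.17. Kif20b, a relative of Kif20a that also acts in cell separation, stood at 9.13 against 8.85, a difference of 0.28, and 11.7% of all genes were at least as high.

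Kif14 gave a different reading by each of its probe sets. Its protein acts in cytokinesis with the midzone crosslinker PRC1 and citron kinase. The probe set annotated to RefSeq transcripts read 8.21 in knockout and 7.70 in wild-type cells, a difference of 0.50, while the probe set annotated only to a single cDNA clone read 3.55 and 3.60, near the bottom of the scale, which starts at 2.40. The average of both, 5.88 against 5.65, fell below the level filter, so Kif14 is not among the 10 mitotic genes counted. With the RefSeq-annotated probe set alone it passed, and the mitotic median over 11 genes became 0.069.

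**Figure D2:**
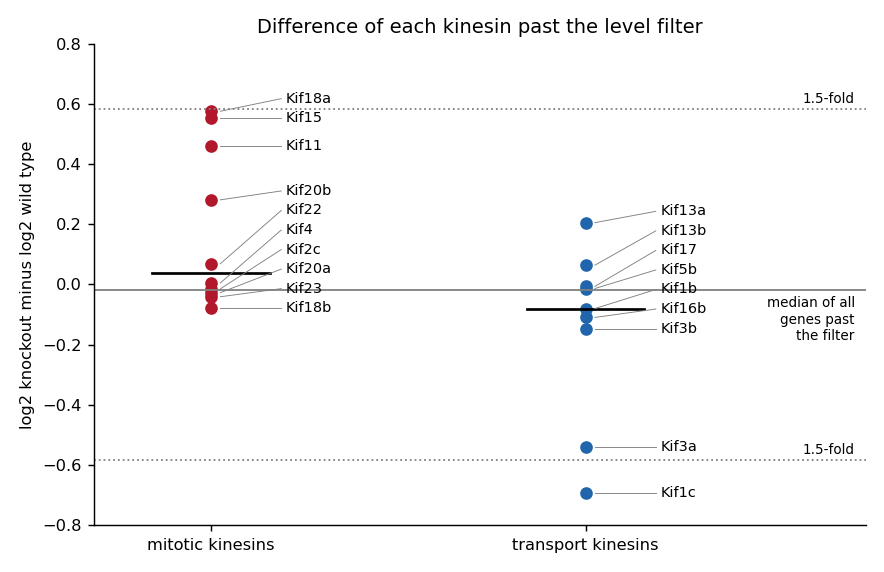
Log2 knockout minus log2 wild type (vertical axis) for the 10 mitotic and 9 transport kinesins past the level filter, 1 point per gene, with class medians of 0.037 and −0.080 as black bars, the median of all 9970 genes past the filter as a grey line and 1.5-fold differences as dotted lines. The 4 highest mitotic genes lie above every transport gene, and Kif3a and Kif1c lie apart at the bottom of the transport class.

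The transport kinesins were mostly close to level, with Kif1c and Kif3a lower in the knockout array. Of 13 genes, 9 passed the filter, and their median was −0.080 with a mean of −0.15. Of these 9, 7 were below 0, against 52.9% of all genes past the filter. After quantile normalization or loess 5 were below 0, where Kif5b and Kif17 turned sign. Kif1b, counted among the 7, passed the filter only through its wild-type value, and its difference of −0.080 is the class median. Over all 13 genes, without the filter, the median was −0.0064.

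Kif1c, a kinesin-3 motor of vesicles on chr11:70700396-70731970, was the only kinesin past the filter that differed by at least 1.5-fold. It stood at 6.89 in knockout and 7.58 in wild-type cells, a difference of −0.69 or 1.62-fold. Its probe sets agreed in direction but not in size, reading 6.96 against 7.28, a difference of −0.32, and 6.82 against 7.88, a difference of −1.06. A knockout value lower by 1.5-fold or more was found in 4.30% of all genes past the filter, and a value higher by that much in 2.34%. The family's share, 1 of 24 kinesins lower and 0 higher, is near that background. Kif18a, at 1.49-fold, lay just short of 1.5-fold and passed it after quantile normalization, loess on level or loess on gene span. At 1.3-fold, a size chosen after the values were seen, 3 of 10 mitotic kinesins were higher, against 6.78% of all genes, and 2 of 9 transport kinesins lower, against 11.1%.

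The kinesin-2 motor, which builds cilia and carries other cargo, is a trimer of KIF3A, KIF3B or KIF3C, and the adaptor KAP3. Kif3a, on chr11:53565701-53604248, stood at 7.05 in knockout and 7.59 in wild-type cells, a difference of −0.54, and 5.24% of all genes were at least as low. Its partners did not share that value. Kif3b was at 7.56 against 7.71, a difference of −0.15, and Kifap3, which encodes KAP3, was higher by 0.10. Kif3c was at 6.58 against 6.37, below the filter on average.

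Conventional kinesin, or kinesin-1, was level. Kif5b, its broadly expressed heavy chain, read 9.29 in knockout and 9.30 in wild-type cells. The neuronal heavy chains Kif5a and Kif5c were below the filter, at 5.66 against 5.63 and 5.46 against 5.34. The neuronal vesicle motor Kif1a was below it as well, at 5.79 against 5.61, and so were all 8 neuron markers listed. Kif1b, which moves mitochondria and synaptic vesicle precursors, was at 6.54 against 6.62, at the edge of the filter, with its knockout value below it. The endosome motors showed small differences of both signs. Kif13a, which carries recycling and mannose 6-phosphate receptor vesicles, stood at 8.29 against 8.08, a difference of 0.21, Kif13b at 7.81 against 7.75, and Kif16b, a motor of early endosomes, at 7.13 against 7.24. Kif17, known for transport in dendrites and cilia, read 7.46 against 7.47.

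Set side by side, the mitotic median exceeded the transport median by 0.12, and the highest 4 mitotic genes lay above every transport gene past the filter. That difference of medians was 0.052 when the gene furthest from 0 was left out of each class. Without the level filter it was 0.075, and with the filter at the 75th percentile 0.19. The difference of the class means was larger, at 0.32, because the mean follows Kif18a, Kif15 and Kif11 on one side and Kif1c and Kif3a on the other. The classes overlapped: Kif13a, the highest transport gene, lay above 6 of the mitotic genes. Genes are not replicates of a genotype, so the difference between the classes has no test.

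The remaining 13 kinesins were close to level wherever they passed the filter. Kif2a, a microtubule depolymerase, was at 10.75 in knockout and 10.77 in wild-type cells. Kif21b, which slows microtubule growth, was at 7.31 against 7.43, and its relative Kif21a, below the filter, at 6.10 against 6.09. Kif7, a regulator of Hedgehog signalling at the cilium tip, differed by −0.12, and Kif24, which acts on the centriole cap, by 0.18. Kif26a, an atypical kinesin without motor activity, differed by 0.12. Over the whole family, 13 genes were below the filter, with differences between −0.023 and 0.23, and besides those already named they were Kif2b, Kif6, Kif9, Kif12, Kif19a, Kif26b and Kif27. The cilium motors Kif6, Kif9, Kif19a and Kif27 were below the filter together with all 7 measured markers of ciliated cells.

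Most promoters of the mitotic kinesins carry an element known from late cell cycle genes. The genes were classed by their mitotic role, and the element was searched for because of its known link to that role. Its frequency in the class is therefore not independent support for the class. The cell cycle genes homology region, CHR, is the element through which the DREAM and MuvB complexes repress late cell cycle genes in resting cells and, with B-MYB and FOXM1, activate them before mitosis. Windows from 250 bases before to 50 bases after annotated starts were taken from RefSeq with the GRCm38.p6 build, which gave windows for 31 of the 37 kinesins. The stretches below run from 60 bases before the start through the first 30 bases of the transcript. That start is the annotated gene edge in Kif11, Kif15 and Kif18a and lies elsewhere in the others shown. It is furthest from the edge in Kif14, at 136467848 against 136466301. They show 3 genes that read higher in the knockout array and have a CHR near the start, then Kif14, which has the variant there and whose probe sets disagreed, then Kif18a, which was highest and has neither, then 3 level mitotic genes, and Kif1c for the transport class. Capitals mark the CHR, TTTGAA, or its variant TTTAAA; a CHR on the opposite strand reads TTCAAA.
Kif11: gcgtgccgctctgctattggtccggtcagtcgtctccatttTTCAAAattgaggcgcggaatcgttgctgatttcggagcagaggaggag
Kif15: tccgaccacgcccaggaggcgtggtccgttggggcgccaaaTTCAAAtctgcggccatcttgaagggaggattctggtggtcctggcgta
Kif20b: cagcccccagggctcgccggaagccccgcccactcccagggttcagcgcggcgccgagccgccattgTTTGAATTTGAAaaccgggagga
Kif14: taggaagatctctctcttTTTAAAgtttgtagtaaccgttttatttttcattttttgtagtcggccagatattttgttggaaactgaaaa
Kif18a: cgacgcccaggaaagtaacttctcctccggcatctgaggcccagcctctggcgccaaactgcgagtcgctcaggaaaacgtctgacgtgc
Kif22: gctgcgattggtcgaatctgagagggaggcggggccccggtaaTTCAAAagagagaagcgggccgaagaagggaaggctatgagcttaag
Kif23: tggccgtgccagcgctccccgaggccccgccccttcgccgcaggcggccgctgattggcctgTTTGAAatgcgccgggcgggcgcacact
Kif18b: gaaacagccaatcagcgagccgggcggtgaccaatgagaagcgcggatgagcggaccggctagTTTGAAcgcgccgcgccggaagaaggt
Kif1c: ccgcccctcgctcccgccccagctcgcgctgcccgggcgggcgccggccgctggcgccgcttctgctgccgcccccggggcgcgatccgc
By position, the stretches are those of Kif11 at chr19:37376322-37376411 on the plus strand, Kif15 at chr9:122951021-122951110 on the plus strand, Kif20b at chr19:34922298-34922387 on the plus strand. The next are those of Kif14 at chr1:136467788-136467877 on the plus strand, Kif18a at chr2:109280678-109280767 on the plus strand, Kif22 at chr7:127042391-127042480 on the minus strand. The last are those of Kif23 at chr9:61946770-61946859 on the minus strand, Kif18b at chr11:102925095-102925184 on the minus strand, Kif1c at chr11:70700488-70700577 on the plus strand.

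A CHR on either strand was present in the windows of 9 of 10 mitotic kinesins, against 1 of 12 windows, from 10 genes, of transport kinesins and 17.9% of 32851 windows of all genes. Kif18a was the mitotic gene without a match, and Kif1a, with 2 windows, the transport gene with 1. In 7 of the mitotic genes a match began close to the start: 19 bases before it in Kif11 and Kif15, 17 bases before it in Kif22, and 2, 3, 7 and 19 bases after it in Kif23, Kif18b, Kif20b and Kif4. The element was thus present in mitotic genes that read higher in the knockout array, such as Kif15, and in level ones, such as Kif23. The variant TTTAAA was found in 2 of the 10 mitotic genes, Kif14 and Kif2c, and in 0 of the 12 transport windows, against 13.2% of all windows. The CCAAT box, CCAAT on either strand, was found in 6 mitotic genes and in 4 of the 12 transport windows, against 37.4% of all windows. The CHR and its variant differ in a single letter and cannot match the same bases, whereas either may adjoin or overlap a CCAAT box. The core of the antioxidant response element that NRF2 binds, TGACNNNGC on either strand, was found in 0 of the 10 mitotic windows and 1 of the 12 transport windows, against 12.4% of all. A match is a run of letters, and binding was not measured.

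**Figure D3:**
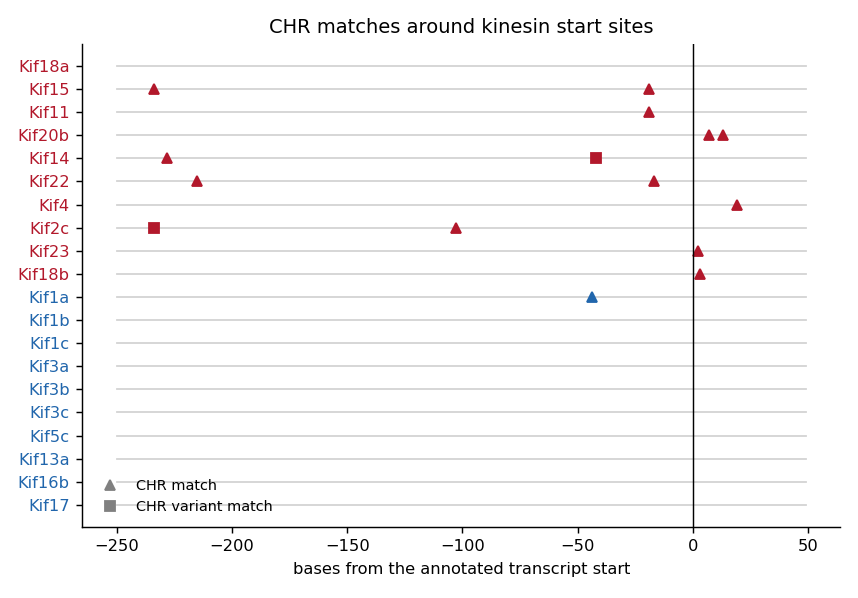
Position of each CHR match (triangles) and CHR variant match (squares), in bases from the annotated transcript start, for 10 mitotic kinesins (red names, ordered from the highest difference to the lowest) and 10 transport kinesins (blue names) with a RefSeq window; Kif1a and Kif1b have 2 windows each, drawn on the same line. Matches in 7 mitotic genes lie within 20 bases of the start, in genes at the top and at the bottom of the order, and Kif18a has none.

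Transcription regulators of cell cycle genes had differences of both signs; the list holds the DREAM and MuvB subunits and their partners together with E2F factors that bind other sites. Of 19 regulators listed, 17 passed the filter, with a median of 0.037 and 9 above 0, against 46.5% of all genes. Mybl2, which encodes B-MYB, stood at 8.37 in knockout and 7.74 in wild-type cells, a difference of 0.63 or 1.55-fold, and the cell cycle activator E2f3 at 8.40 against 7.81, a difference of 0.59. Foxm1, named outside the naming rule for its role at the CHR, differed by −0.20. E2f5, below the filter on average, stood at 6.99 against 6.10, a difference of 0.88.

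Most of the non-motor partners of the mitotic kinesins were higher in the knockout array. Of 37 spindle and midzone partners listed, 36 were measured and 35 passed the filter. Of the 35, 27 were above 0, against 46.5% of all genes. Their median was 0.31, and 6 were at least 1.5-fold higher, against 2.34% of all genes. Nusap1, a spindle microtubule stabiliser, stood at 9.24 in knockout and 8.42 in wild-type cells, a difference of 0.82. The checkpoint kinase Bub1 differed by 0.79, the spindle protein Hmmr by 0.68 and Aurkb, the kinase that Kif20a brings to the midzone, by 0.63. Direct partners of single motors, named outside the rule, are given beside their motors. Racgap1, which completes the centralspindlin complex with Kif23, stood at 7.91 against 8.08, a difference of −0.16, and Ect2, the exchange factor that binds centralspindlin, at 8.83 against 8.29, a difference of 0.54, while Kif23 was level. Prc1, the crosslinker that Kif4 carries along the midzone, stood at 8.60 against 8.10, a difference of 0.50, while Kif4 was level. Tpx2, a spindle assembly factor that binds Kif11 and Kif15, was higher by 0.32. Cenpe, a chromosome-aligning motor of the kinesin-7 family whose name lies outside the Kif pattern, stood at 9.03 against 8.70, a difference of 0.33.

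**Figure D4:**
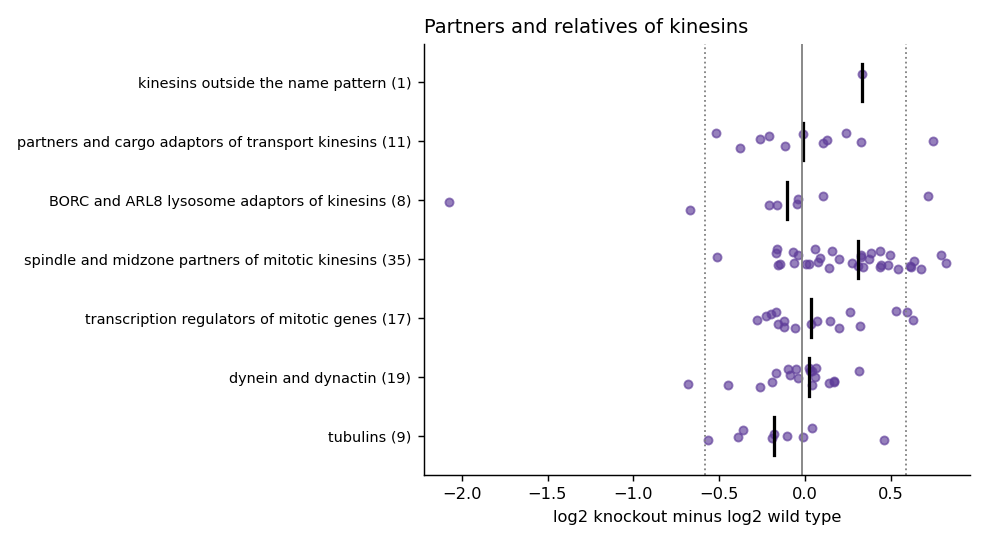
Log2 knockout minus log2 wild type (horizontal axis) of the members past the level filter of 7 lists of kinesin partners and relatives, 1 point per gene with random vertical jitter, the number of genes in brackets, list medians as black bars, the median of all genes past the filter as a grey line and 1.5-fold differences as dotted lines. The spindle list has a median of 0.31, the other lists with more than 1 gene have medians between −0.18 and 0.037, and Borcs6 lies alone at −2.07.

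Adaptors of transport kinesins had differences of both signs. Of 19 partners and cargo adaptors listed, 16 were measured and 11 passed the filter, with 5 of these above 0, against 46.5% of all genes. Their median was −0.0097 and turned to 0.016 with quantile normalization and 0.019 with loess on level. Trak2, which links kinesin-1 to mitochondria, stood at 7.75 in knockout and 7.001 in wild-type cells, a difference of 0.75. Kifbp, whose protein binds several kinesin motor domains and holds them off microtubules, stood at 7.10 against 7.62, a difference of −0.52. Fez2, below the filter on average, stood at 6.04 against 6.85, a difference of −0.81. BORC, the complex that recruits the small GTPase ARL8 to lysosomes so that kinesins can carry them, had the widest range of the 7 lists. All 8 measured members of that list passed the filter, with a median of −0.10 and 6 below 0, against 52.9% of all genes; 2 were at least 1.5-fold lower, against 4.30%. Borcs6, a BORC subunit, stood at 6.74 against 8.82, a difference of −2.07 or 4.21-fold, where 0.762% of all genes were at least 2-fold lower. Bloc1s1 and Bloc1s2, subunits that BORC shares with another complex, went opposite ways, at −0.67 and 0.71. Snapin, also on the list, was nearly level at 9.93 against 9.98, a difference of −0.049.

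Genes of the track, tubulin, and of the opposite motor, dynein, had differences of both signs. Of 16 measured tubulin genes, 9 passed the filter, with 7 below 0, against 52.9% of all genes, and a median of −0.18, which was −0.058 over all 16 without the filter; Tubb2a stood at 9.19 against 9.76, a difference of −0.57, and Tuba8 at 8.72 against 8.26, a difference of 0.46. Of the genes of dynein and dynactin, which move cargo towards microtubule minus ends, 19 passed the filter. Their median was 0.024 and 10 were above 0, against 46.5% of all genes. The dynein intermediate chain Dync1i2 stood at 9.12 against 9.80, a difference of −0.68, and the light chain Dynlt3 differed by −0.45.

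Gene span, the length from annotated start to end, differed between the mitotic genes that were higher and most of those that were level. Kif11, Kif20b, Kif18a and Kif15 span 45.5, 53.4, 61.0 and 67.7 kb. Of the level genes, Kif20a, Kif22, Kif18b, Kif2c and Kif23 span 8.65, 14.7, 19.6, 23.0 and 29.5 kb, and Kif4, at 101 kb, is the exception. Spearman's rho between span and difference was 0.60 over the 10 mitotic genes, 0.57 over the 9 transport genes and 0.34 over the 35 spindle partners, across genes that share the same 2 arrays. Over 9944 genes past the filter with an annotated span it was 0.033, and in 10 equal groups of these genes by span the medians lay between −0.039 and 0.0061. Since that trend is nearly flat, subtracting it could change the differences only slightly. Kif11 was then at 0.48, Kif15 at 0.57 and Kif18a at 0.59. The part of gene span in these differences was not tested.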

How the data were processed

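Each probe set has a deposited log2 intensity per array; base 2 was inferred from the range, 2.40 to 13.8. Per the submitters' processing notes Partek was used, with no version or role; the sources used here name no background correction, normalization or probe summary. The sorted values of both arrays differed by at most 0.0866, so a change common to all genes would not show. Of 28853 probe sets, the 21789 with 1 gene symbol in the platform annotation were used, and 1621 with several and 5443 with none were left out. Probe sets of a gene were averaged. All 37 kinesins matched RefSeq (GRCm38.p6) by Entrez ID.

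With 1 array per genotype no test was run. Classes and lists were summarised by the median and by counts beside all genes past the filter; named genes were every kinesin and, per partner list, up to 4 members at least 1.5-fold apart, or the 2 furthest apart. Members and lists were chosen with earlier results of these data known. The alternatives were median centring, quantile normalization, loess on level, other filters, the probe set of highest mean, means, other class limits and other folds; loess on gene span, probe sets with a RefSeq transcript and the 1.3-fold size were added after seeing the data. The procedure was tested on simulated data with planted folds and less spread than the real differences. That test checked medians over many genes, not readings of single kinesins or small classes. Computation used Python 3.11.15, numpy 2.4.6, pandas 2.3.3 and statsmodels 0.14.6. The number of arrays limits the precision.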

Additional observations from a re-analysis of the deposited data

How the results depend on the processing

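The median of a class or list was said to move when an alternative shifted it past a limit. That limit was the robust probe-set error divided by the square root of the number of genes. A count was said to move when it changed by more than 1.5 times. For the difference between the class medians, 0.12 as reported, a wider limit held. Its values of 0.075 without a filter, 0.19 at the 75th percentile filter and 0.052 without the furthest gene of each class were counted as not moved. Of 106 comparisons of a class or list with an alternative, 85 stayed within these limits. At the 75th percentile filter the mitotic median was 0.28 over 5 genes and the transport median 0.096 over 2, and without a filter the transport median was −0.0064. Means in place of medians gave 0.18, −0.15 and a class difference of 0.32. The number of kinesins at least 1.5-fold apart, 1 as reported, was 2 after quantile normalization, loess on level or loess on span, 0 at the 75th percentile filter, 0 at 2-fold and 5 at 1.3-fold. The 75th percentile filter gave −0.064 for transport adaptors, −0.039 for dynein and −0.095 for tubulins, which were −0.058 without a filter. Means gave −0.30 for BORC, 0.25 for spindle partners, whose median was 0.34 after quantile normalization, 0.086 for regulators and −0.052 for dynein. The stricter filters use fewer genes; for the other changes the cause was not tested. No paired analysis was possible because each genotype has 1 array.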
